A study of Mus musculus with 4 samples.

Results

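The extracellular matrix and its receptors were examined as the genes that carried a MyoD peak and that the deposited annotation places in the KEGG pathway ECM-receptor interaction. There were 52 such genes among 7262 gene identifiers named in the lists, of which 2105 had any KEGG pathway text. The 52 were 11 collagens, 8 laminins, 13 integrins, 12 other matrix ligands and 8 other receptors. Binding of MyoD, a bHLH factor that switches on muscle genes, had been mapped by ChIP-seq in myotubes, the fused multinucleated cells that mature into fibres. The myotubes came from myoblasts of 2-week-old C57BL/6 mice, were allowed 5 days to differentiate, and spent a further 24 hours in differentiation medium that did or did not contain pyruvate. Each condition had 1 MyoD ChIP library and 1 input. A single peak list per ChIP library was used: the pyruvate list with 11907 peaks, and the pyruvate-free list with 19338.

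The conditions had no replicate, so no p-value was computed. Sequencing depth is unknown, and a site called in 1 list may have been missed in the other for that reason. The list names rest on the sample titles, because an abbreviation in the file names can be read the other way round. A peak is a called region of MyoD binding and shows nothing about whether a gene was expressed, and the labelled cell type cannot be checked against marker expression in such data.

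Muscle fibres sit in a basement membrane built from laminins, type IV collagen, nidogen and perlecan. Laminin is held at the fibre surface by the integrin of alpha-7 and beta-1 chains and by dystroglycan, which tie it to the cytoskeleton, and collagen VI links the basement membrane to the fibrillar collagens outside it. Inherited loss of the laminin alpha-2 chain, of collagen VI or of functional dystroglycan causes muscular dystrophy. Integrins are pairs of an alpha and a beta chain, and the pair sets which ligand is bound.

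MyoD peaks were found at 33 of the 52 genes in the pyruvate list (74 peaks) and at 48 in the pyruvate-free list (115 peaks). Of the 52, 29 were bound in both lists (55.8%, against 55.1% of all genes named). A further 4 were bound in the pyruvate list alone (7.69%, against 9.94%) and 19 in the pyruvate-free list alone (36.5%, against 35.0%). These shares lay close to those of all genes, so the split between the lists does not set the matrix genes apart. The number of peaks per gene ran from 0 to 10 in each list with a median of 1 in both, which is also the median over all genes. Of the 52 genes, 31 had more peaks in the pyruvate-free list, 6 had more in the pyruvate list and 15 had as many in both (59.6%, 11.5% and 28.8%, against 53.8%, 16.9% and 29.2% of all genes).

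**Figure D1:**
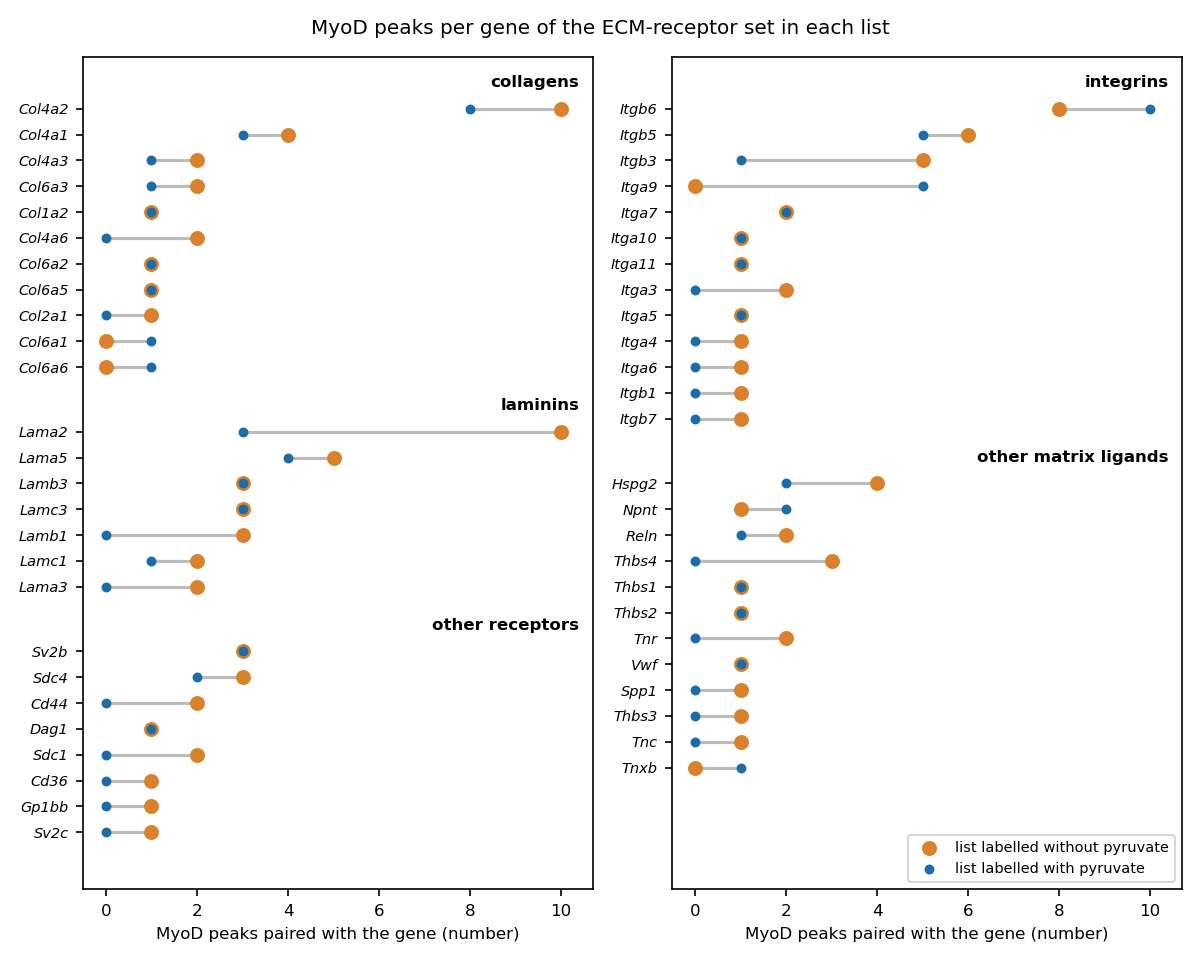
Each row is a gene of the set (1 laminin is not shown), and the points give the number of MyoD peaks paired with it in the list labelled with pyruvate (small, blue) and in the list labelled without pyruvate (large, orange), on a linear axis. Col4a2, Lama2 and Itgb6 reach 10 peaks in at least 1 list, and Itga9 has 5 in the pyruvate list and 0 in the pyruvate-free list.

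Type IV collagen, the sheet-forming collagen of basement membranes, held most of the collagen peaks. Col4a2 had 8 peaks in the pyruvate list and 10 in the pyruvate-free list, and 7 of each overlapped, spread from 2.60 to 107 kb into the gene. The widest of them, 572 bases in the pyruvate list (chr8:11382216-11382788, mm9) and 563 in the pyruvate-free list, lay near the middle of the gene at 69.7 kb from its start. Col4a1, the neighbour that is transcribed in the opposite direction, had 3 peaks in the pyruvate list, all overlapped, and 4 in the pyruvate-free list. At 53.9 kb from the Col4a1 start the peak was 278 bases wide in the pyruvate list and 635 bases in the pyruvate-free list (chr8:11258611-11259246), the widest peak at any of the 11 collagens. The listed bodies of both genes overlap at their start sites, and no peak lay within 2 kb of either start. The nearest was in Col4a2, with its near edge 2426 bases (pyruvate list) and 2401 bases (pyruvate-free list) from the start. Of the other type IV chains, Col4a3 had 1 overlapped peak and a second only in the pyruvate-free list, and Col4a6 had 2 only in the pyruvate-free list.

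Collagen VI genes had a single site each in most cases. Col6a2 had a peak in both lists (212 and 234 bases) that fell in a 2-kb flank, and Col6a5 likewise (291 and 205 bases). The files do not show whether these flanks lie upstream or downstream of the genes. Col6a3 had an overlapped peak 8.97 kb into the gene (216 and 256 bases), and a second of 210 bases at 5.08 kb was in the pyruvate-free list only. Col6a1 (218 bases, 11.6 kb into the gene) and Col6a6 (172 bases, in a flank of unknown side) had a peak in the pyruvate list only. Col1a2, a chain of the main fibrillar collagen, had an overlapped peak 2.7 kb from its start (180 and 290 bases), and Col2a1, the cartilage collagen, had 1 of 202 bases in the pyruvate-free list only. By gene, 7 collagens were bound in both lists (63.6%, against 55.1% of all genes), 2 only in the pyruvate list (18.2%, against 9.94%) and 2 only in the pyruvate-free list (18.2%, against 35.0%), from 11 genes.

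The widest binding region at any gene of the set lay upstream of Lama5, which encodes the laminin alpha-5 chain of many basement membranes. In the pyruvate list this peak spanned 1025 bases (chr2:179962149-179963174) and ranked 4 by width among all 11907 peaks. In the pyruvate-free list it spanned 780 bases (chr2:179962106-179962886) and ranked 42 of 19338. Its near edge lay 1585 and 1542 bases upstream of the Lama5 start. The deposited table pairs it with Lama5 in the pyruvate-free list and with no gene in the pyruvate list, where 40.5% of the peak fell in the flank of Lama5. A count by the pairings alone therefore shows Lama5 without an upstream peak in the pyruvate list, although the peaks overlap by 737 bases. Inside the gene, 3 further peaks were overlapped, and each list had 1 peak of its own.

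Lama2, which encodes the alpha-2 chain of the main laminin of muscle fibres, differed more between the lists in number than any other gene of the set, with 3 peaks in the pyruvate list and 10 in the pyruvate-free list. All 3 peaks of the pyruvate list had a partner. These were a peak 758 bases upstream of the start (281 bases wide, against 326 in the pyruvate-free list, where its edge lay 732 bases away), and peaks at 238 and 322 kb inside this gene of 636 kb. The 7 peaks found only in the pyruvate-free list were between 166 and 385 bases wide and were scattered from 116 to 515 kb. Per 100 kb of gene body Lama2 carried 0.472 peaks in the pyruvate list and 1.57 in the pyruvate-free list. The pooled values were 1.43 and 2.21 for the 44 genes of the set whose body is listed. All of these densities count every paired peak, those in flanks included, against the length of the body.

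Lamb3, a laminin chain of epithelia, had 3 peaks in each list, all overlapped, of which 1 lay in its downstream flank, inside the listed region of the kinase gene Camk1g as well (375 and 341 bases). Lama3 had 2 peaks only in the pyruvate-free list. Lamc3 had 3 peaks in each list, of which 2 overlapped. The widely expressed chains Lamb1 and Lamc1 had 0 and 3 peaks and 1 and 2 peaks, in the pyruvate and pyruvate-free lists in that order. By gene, 6 of the 8 laminins were bound in both lists (75%, against 55.1% of all genes). There were 0 bound only in the pyruvate list (0%, against 9.94%) and 2 only in the pyruvate-free list (25%, against 35.0%).

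**Figure D2:**
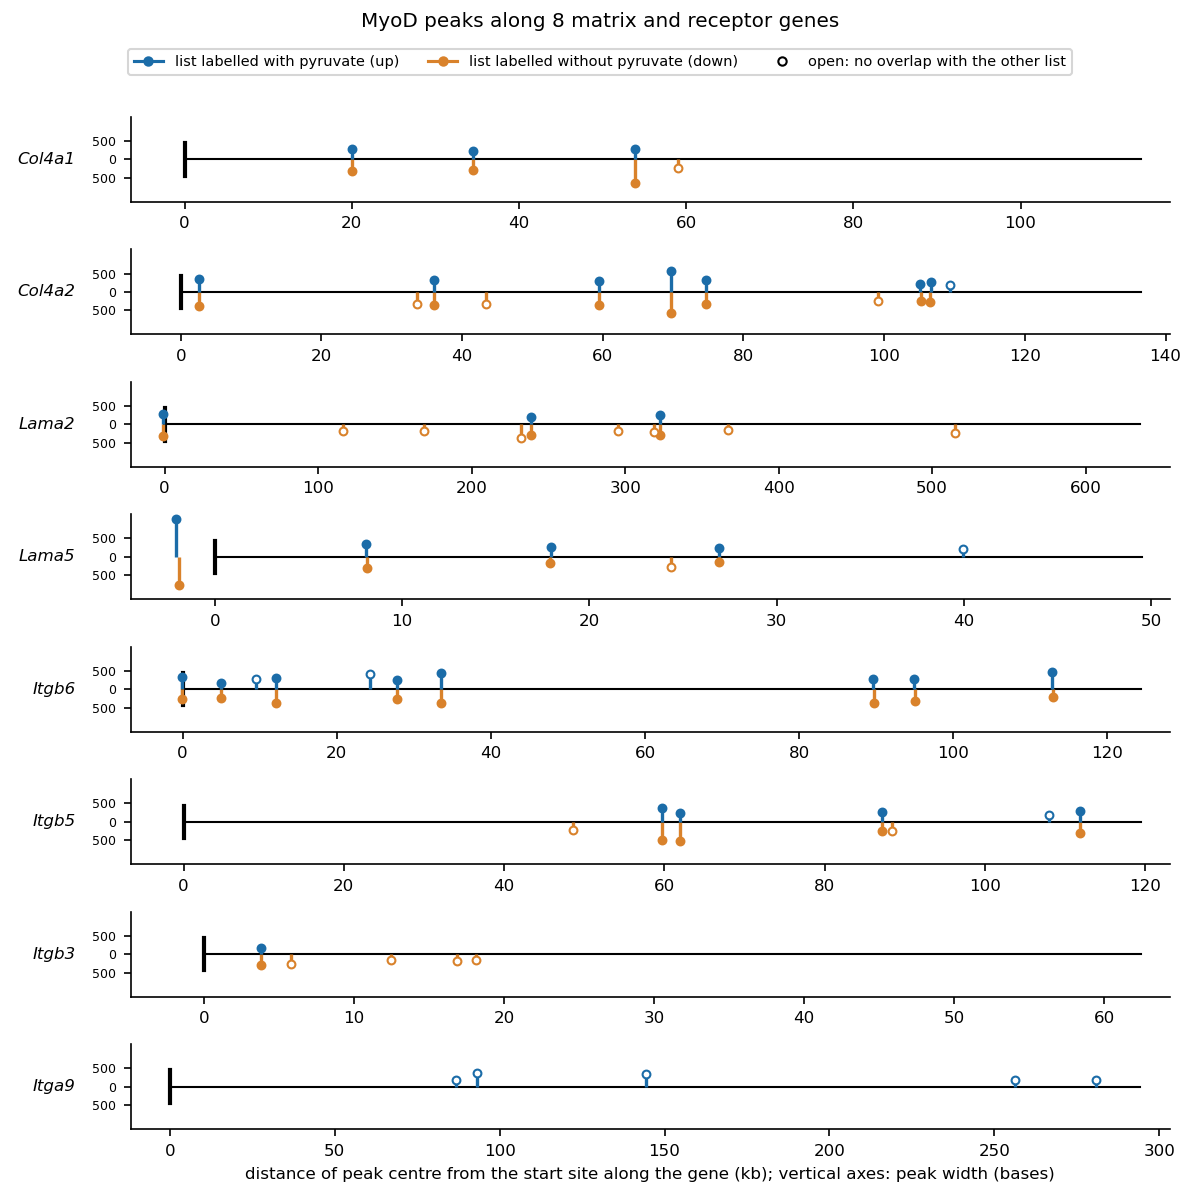
Peaks along 8 genes are drawn at the distance of their centres from the start site (thick tick, in kb), upward for the list labelled with pyruvate and downward for the list labelled without, with stem height giving peak width in bases. Filled heads mark peaks that overlap the other list and open heads mark those that do not: 14 of 18 peaks are filled in Col4a2 and 16 of 18 in Itgb6, and all 5 are open in Itga9.

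Among the integrins, Itgb6 had the most peaks. It encodes the beta-6 chain, which pairs with alpha-v in a receptor best known from epithelia, where it activates latent TGF-beta. There were 10 peaks in the pyruvate list and 8 in the pyruvate-free list, and each of the 8 overlapped a peak of the pyruvate list. Over all genes, 24 had at least 10 peaks in the pyruvate list. A peak covered the Itgb6 start site in both lists, 342 bases wide in the pyruvate list (chr2:60560584-60560926) and 277 in the pyruvate-free list (chr2:60560622-60560899). The other overlapped peaks lay between 4.99 and 113 kb into the gene. The peaks of 275 and 405 bases at 9.55 and 24.3 kb were in the pyruvate list alone, and the latter was among the widest unpartnered peaks of the set. At 113 kb the peak was 481 bases wide in the pyruvate list and 207 in the pyruvate-free list.

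Only Itgb6, in both lists, and Dag1, in the pyruvate list and described further on, had a peak over a located start site. Their promoter sequences are therefore shown, as the 250 bases before the outermost start in RefSeq (GRCm38.p6, minus strand, chr2:60722604-60722853 for Itgb6 and chr9:108263959-108264208 for Dag1). Capitals mark matches to CANNTG, the E-box core that bHLH factors bind, which reads the same on both strands. RefSeq gives 2 promoters for each gene, and its start may differ from that of the mm9 annotation by some bases. Each window reaches further upstream than the peak at the start, so a marked match need not lie under a peak. The Dag1 match falls close to the upstream edge of the pyruvate-list peak, and whether it lies under that peak cannot be told. In the pyruvate-free list the Dag1 peak began 267 bases inside the gene, outside the window.
Itgb6: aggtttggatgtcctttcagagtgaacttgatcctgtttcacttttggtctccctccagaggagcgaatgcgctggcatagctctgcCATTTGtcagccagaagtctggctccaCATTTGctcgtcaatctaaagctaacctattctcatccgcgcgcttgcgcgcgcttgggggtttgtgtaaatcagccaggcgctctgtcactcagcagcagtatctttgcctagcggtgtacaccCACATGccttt
Dag1: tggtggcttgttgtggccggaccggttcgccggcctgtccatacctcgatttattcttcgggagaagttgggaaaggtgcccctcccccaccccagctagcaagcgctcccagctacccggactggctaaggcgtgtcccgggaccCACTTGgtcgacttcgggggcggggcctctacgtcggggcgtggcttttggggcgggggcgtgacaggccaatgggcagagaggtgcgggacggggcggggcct

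The Itgb6 window held 3 E-box cores, with their first bases 163, 136 and 11 bases before the start, and the Dag1 window held 1, at 104 bases. None of the 4 is the form CAGCTG. Promoter windows were found for 41 of the 52 genes, and 26 of them held CANNTG (63.4%), against 66.1% of 27025 promoters of the same length. The form CAGCTG was in 5 (12.2%, against 12.7%) and CAGGTG or its reverse complement CACCTG in 7 (17.1%, against 17.1%). Promoters of the set thus held these letters about as often as promoters in general. The sequences under peaks inside genes were not analysed here.

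Itga7 encodes the alpha-7 chain, the partner of beta-1 in the laminin receptor of mature muscle. It had 2 peaks in each list and both were overlapped, at 4.1 kb (342 and 291 bases) and at 4.9 kb (252 and 255 bases) from the start. Itgb1, the beta-1 chain shared by most matrix receptors, had a single peak of 169 bases in a flank of unknown side, in the pyruvate-free list only. The laminin receptor chains Itga3 (2 peaks) and Itga6 (1 peak) were in the pyruvate-free list only, as were Itga4 (1 peak), which binds fibronectin and VCAM-1, and Itgb7 (1 peak), its partner on leukocytes. Itga5, the fibronectin receptor chain, and the collagen receptor chains Itga10 and Itga11 had 1 overlapped peak each.

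Itgb5, the beta-5 chain that pairs with alpha-v, had 5 peaks in the pyruvate list and 6 in the pyruvate-free list, and 4 of each overlapped. Of these, the peak at 62.0 kb was 231 bases wide in the pyruvate list and 523 in the pyruvate-free list. Itgb3, the beta-3 chain of platelets and other cells, had 1 and 5 peaks. Its overlapped peak lay 3.8 kb from the start (172 and 292 bases), and the other 4 lay between 5.77 and 18.2 kb in the pyruvate-free list only.

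Itga9, whose product binds tenascin and osteopontin, went the other way, with 5 peaks in the pyruvate list and 0 in the pyruvate-free list. The 5 peaks were 169, 364, 346, 189 and 169 bases wide and lay from 86.8 to 281 kb inside this gene of 294 kb. Of 261 genes with at least 5 peaks in the pyruvate list, 3 had none in the pyruvate-free list: Itga9 and, named after their values were seen, Casz1 and Cacna2d3. In the other direction, 13 of 513 genes with at least 5 peaks in the pyruvate-free list had none in the pyruvate list. The pyruvate-free list had no peak in the 706 kb between chr9:118273111-118273405 and chr9:118979727-118979942, a stretch that holds all of Itga9, and 614 of its 19318 gaps between neighbouring peaks were at least as long. That count is by number of gaps, and long gaps cover a larger part of the genome than their number shows. The stretch was looked at because it holds Itga9. By gene, 7 integrins were bound in both lists (53.8%), 1 only in the pyruvate list (7.69%) and 5 only in the pyruvate-free list (38.5%), which is about the split over all genes (55.1%, 9.94% and 35.0%).

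The 12 other matrix ligands had 9 peaks in the pyruvate list and 18 in the pyruvate-free list. Their median was 1 per gene in each list, as over all genes. Of these genes, 6 were bound in both lists (50%, against 55.1% of all genes) and 1 only in the pyruvate list (8.33%, against 9.94%). A further 5 were bound only in the pyruvate-free list (41.7%, against 35.0%). Hspg2, which encodes perlecan, had 2 and 4 peaks, but just 1 site was common to both lists, 19.1 kb from the start (250 and 202 bases). Thbs1, an adhesive glycoprotein that binds CD36 and CD47, had an overlapped peak of 201 and 327 bases in a flank of unknown side. Thbs2 and Vwf, the carrier of clotting factor VIII, each had 1 overlapped peak, and at Vwf it was 341 and 469 bases wide. Thbs4, a thrombospondin of muscle and tendon, had 3 peaks only in the pyruvate-free list (174 to 282 bases). Thbs3 (158 bases, 815 bases from its start and shared with the neighbour Mtx1), Spp1, which encodes osteopontin (241 bases, in a flank), Tnc (178 bases) and Tnr (2 peaks) were also in the pyruvate-free list only. Tnxb had 1 peak of 194 bases in the pyruvate list only. Reln, the large secreted glycoprotein reelin, had 1 overlapped site and a second peak in the pyruvate-free list. Npnt, a basement membrane ligand of integrins, had 2 and 1 peaks at different places, with no overlap.

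Dag1 encodes dystroglycan, the laminin receptor that joins the basement membrane to dystrophin. In the pyruvate list its peak was 421 bases wide (chr9:108165930-108166351) and covered the start site, whereas in the pyruvate-free list it was 160 bases wide (chr9:108165828-108165988) and began 267 bases inside the gene. The overlap between them was 58 bases. The syndecan gene Sdc4 had 2 peaks in the pyruvate list and 3 in the pyruvate-free list. Of its overlapped pairs, the peak 2.6 kb from the start was 459 and 577 bases wide and the peak at 10.8 kb was 466 and 184 bases wide. Sv2b, a synaptic vesicle protein that KEGG places in the pathway, had 3 overlapped peaks in each list. Of the 8 other receptors, 3 were bound in both lists (37.5%, against 55.1% of all genes) and 0 only in the pyruvate list (0%, against 9.94%). The remaining 5 were bound only in the pyruvate-free list (62.5%, against 35.0%). Sdc1 (2 peaks), Cd44, the hyaluronan receptor (2 peaks, 1 of them upstream with its edge 1015 bases from the start), Cd36, a receptor for thrombospondin and fatty acids (318 bases), Gp1bb (160 bases, in a flank and shared with a neighbouring gene) and Sv2c (272 bases) had peaks in the pyruvate-free list only.

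Of the 74 peaks of the pyruvate list at these genes, 56 shared 1 base or more with a peak of the pyruvate-free list. That is 75.7% (64.3 to 84.9, exact binomial interval at 95%), against 71.5% of all gene-paired peaks. In the pyruvate-free list 57 of 115 did, or 49.6% (40.1 to 59.0), against 46.9%. Each interval contains the value over all genes. The intervals cover counting error only, and peaks of the same gene are not independent of each other. By class the share in the pyruvate list ran from 55.6% (21.2 to 86.3) for the other ligands to 100% (54.1 to 100) for the 6 peaks at other receptors, with 83.3% (58.6 to 96.4) for collagens, 80.0% (51.9 to 95.7) for laminins and 69.2% (48.2 to 85.7) for integrins. In the pyruvate-free list it ran from 27.8% (9.69 to 53.5) for the other ligands to 62.5% (40.6 to 81.2) for collagens. All of these class intervals overlap each other within a list.

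**Figure D3:**
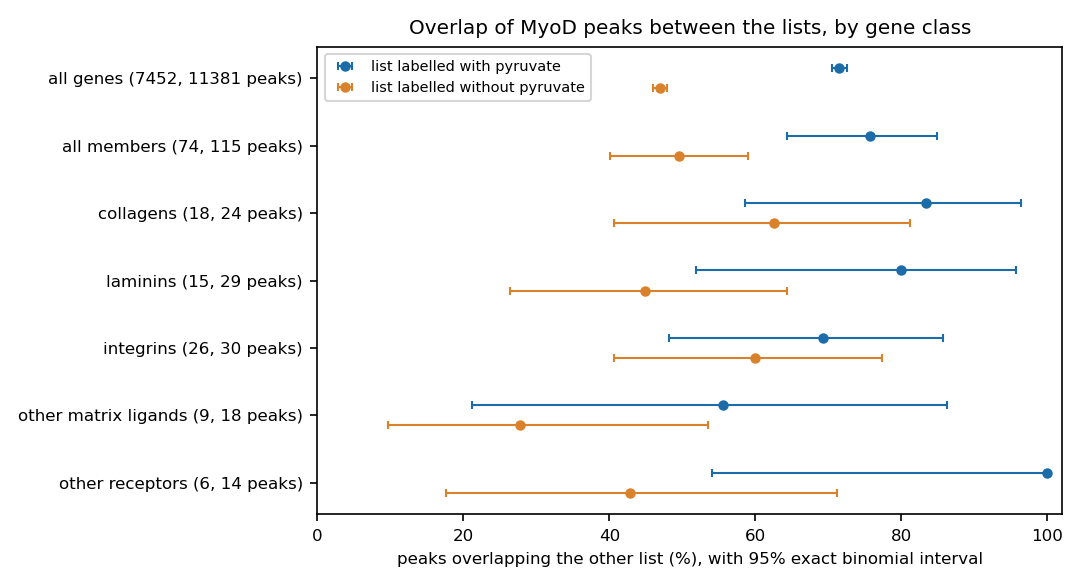
Points give the percentage of MyoD peaks that overlap the other list by at least 1 base, for all genes, for the 52 genes and for each class, and bars are 95% exact binomial intervals (counts of peaks in the pyruvate and pyruvate-free lists in brackets). The intervals of the set, 64.3 to 84.9 and 40.1 to 59.0, take in the values over all genes, 71.5 and 46.9.

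Of the 29 genes with a peak in both lists, 27 had at least 1 overlapping pair (93.1%, against 94.7% of 3999 such genes in all). At 13 of them every peak of either list was overlapped (44.8%, against 46.5%), and at 2, Npnt among them, none was (6.90%, against 5.30%). The 13 were Col1a2, Col6a2, Col6a5, Dag1, Itga5, Itga7, Itga10, Itga11, Lamb3, Sv2b, Thbs1, Thbs2 and Vwf.

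The files keep no usable height for a peak, so width stands in for it, and width also varies with sequencing depth and with the length of the DNA fragments. Overlapped peaks of the set were wider than the others, with medians of 273.5 against 215 bases in the pyruvate list and 292 against 224.5 in the pyruvate-free list. The same held over all gene-paired peaks, at 264 against 217 and 284 against 211 bases. In the 57 overlapping pairs, which include the Lama5 pair, the peak of the pyruvate-free list was the wider in 38 (66.7%, against 59.3% of all 5360 pairs), and the median ratio of widths was 1.09 (1.07 over all pairs). Peak centres in a pair lay a median of 12.5 bases apart (18 over all pairs) and at most 232.5 bases, at Dag1. For collagens the pyruvate-free list had the wider peak in 13 of 15 pairs and for laminins in 6 of 13. The largest ratios were 2.28 at Col4a1 and 2.26 at Itgb5, and the smallest was 0.380 at Dag1; Sdc4 and Itgb6 followed, with the pairs described above.

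**Figure D4:**
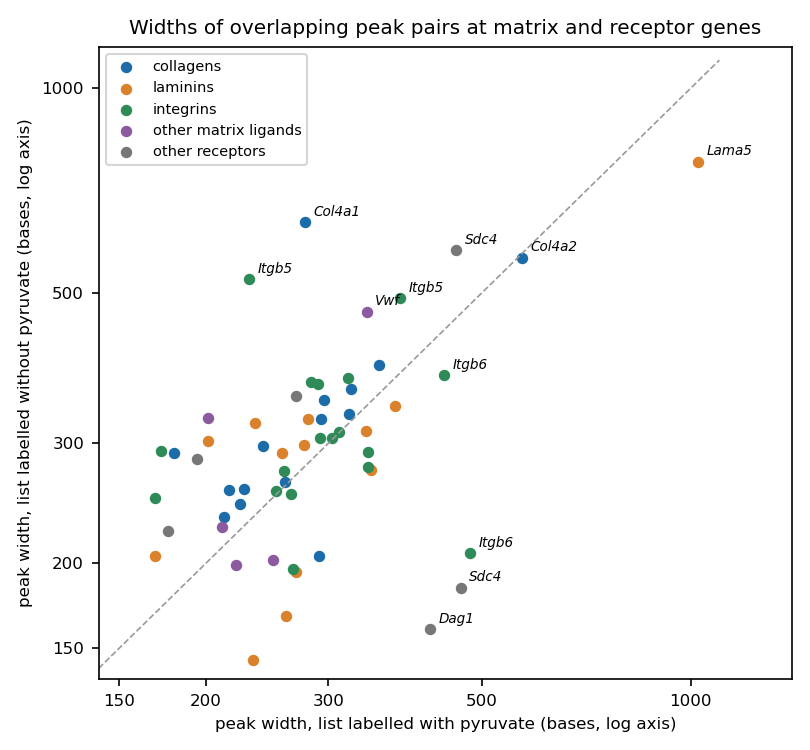
Each point is 1 of the 57 overlapping pairs, with peak width in the list labelled with pyruvate across and in the list labelled without pyruvate upward (bases, log axes), coloured by gene class, and the dashed line marks equal width. Lama5 stands at 1025 and 780 bases, and Dag1, Sdc4 and Itgb6 each have a pair far below the line.

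Few of the peaks lay at start sites. Peaks were counted as promoter-proximal if they came within 2 kb of a located start or, for genes without one, if they fell in a 2-kb flank. By this count 7 genes had one in both lists (13.5%, against 18.9% of all genes), namely Col6a2, Col6a5, Lama2, Lama5, Itgb6, Thbs1 and Dag1. It was in the pyruvate list alone at 1 gene, Col6a6 (1.92%, against 5.88%), and in the pyruvate-free list alone at 8 (15.4%, against 17.5%): Itga3, Itga4, Itgb1, Itgb7, Spp1, Thbs3, Cd44 and Gp1bb. No start was located for 8 of the 52 genes, and with located starts alone the counts were 4, 0 and 4. Of the peaks paired with a gene of the set whose start was located, 3 of 70 in the pyruvate list lay within 2 kb of it, or 4.29% (exact binomial interval 0.893 to 12.02), against 14.1% over all genes. In the pyruvate-free list 8 of 108 did, or 7.41% (3.25 to 14.1), against 13.5%. The first interval lay below the value over all genes and the second contained it. Both intervals treat peaks as independent, which peaks of the same gene are not. In the pyruvate list Itgb6 and Col4a2 alone gave 10 and 8 of the 70. The upstream Lama5 peak of the pyruvate list is not among the 3, as it was paired with no gene. The genes of the set were longer, with a median body of 66.5 kb against 47.7 kb over all genes, and the part of gene length in this share was not tested.

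Within 10 kb of the start lay 21.4% and 24.1% of the peaks of the set in the pyruvate and pyruvate-free lists, against 29.1% and 27.6% over all genes. The median distance from the start was 38.1 and 34.0 kb, against 30.1 and 33.0 kb. Along the gene body the median peak lay at 49.0% and 36.7% of its length, against 46.9% and 45.6%. Just inside the 2-kb limit was the Lama5 peak described above. Just outside it were a Lamb1 peak of the pyruvate-free list alone (near edge at 2224 bases) and the overlapped peaks of Sdc4, Col4a2 and Col1a2 (2352, 2401 and 2529 bases in the pyruvate-free list). Pooled over genes with a listed body, the set carried 1.43 and 2.21 peaks per 100 kb of body in the pyruvate and pyruvate-free lists. Over all genes the values were 1.33 and 2.00, and paired peaks in flanks were counted throughout. Over all genes with KEGG pathway text, from which the set is drawn, the values were 1.25 and 1.87. The pooled density of the set was thus somewhat above both, and the difference was not tested. The median density per gene was 1.42 and 2.66 in the set, against 1.37 and 2.92 over all genes. Over genes with KEGG pathway text it was 1.35 and 2.62. By the median, the set thus lay below all genes in the pyruvate-free list. By length, the 10 genes of the set under 30 kb had a mean of 0.8 and 1.3 peaks, against 0.873 and 1.21 in 2113 such genes over all. The 15 genes of 30 to 100 kb had 1.2 and 2.2, against 1.15 and 1.69 in 2026 genes. The 19 genes of at least 100 kb had 2.32 and 3.26, against 2.096 and 3.35 in 1654 genes, so the set lay above all genes in some bands and lists and below in others.

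Most genes of the set are also placed in the KEGG pathways focal adhesion (42 of 52, against 119 of all 2105 genes with pathway text) and PI3K-Akt signalling (42, against 161). Several matrix genes by name were outside the set. RefSeq names 44 collagen, 11 laminin and 27 integrin genes, of which 32, 8 and 16 appeared in the lists. The share of all RefSeq genes that appeared in the lists was not counted. These counts, and the numbers of genes named from the fixed lists below, therefore cannot be set against genes in general. The laminins without a row in either list were Lama1, Lama4 and Lamb2, and the integrins included Itgav and Itgb8, so that beta-5, beta-6 and beta-3 chains had peaks while their partner alpha-v had no row. Fibronectin (Fn1), agrin (Agrn) and Col1a1 had no row either. A further 21 collagens had peaks but no text for this pathway, 12 of them in both lists, 9 only in the pyruvate-free list and 0 only in the pyruvate list (over all genes 55.1%, 35.0% and 9.94%). These included Col19a1 (6 and 6 peaks), Col25a1 (5 and 1) and Col24a1 (0 and 5). Of 3 integrins outside the set, Itgad (2 and 0 peaks) and Itgam (1 and 0) were in the pyruvate list alone and Itgb2 (0 and 1) in the pyruvate-free list alone.

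Other genes of matrix and adhesion were counted from fixed lists. Of all named genes, 55.1% were bound in both lists, 9.94% only in the pyruvate list and 35.0% only in the pyruvate-free list. Of 20 genes on the cytoplasmic side of integrins, 17 were named, 13 of them bound in both lists, 2 only in the pyruvate list and 2 only in the pyruvate-free list. Those in both included Tln2, the talin that activates integrins in muscle (6 and 8 peaks), Pxn (3 and 5) and Bcar1 (4 and 3). Itgb1bp3 (2 and 0) and Lims2 (1 and 0) were in the pyruvate list only, and Ptk2, the focal adhesion kinase (0 and 2), and Parva (0 and 2) in the pyruvate-free list only. Of 12 genes of the dystrophin complex, 10 were named and 8 had peaks in both lists, among them Utrn (6 and 9) and Sntb1 (5 and 11), while Dmd, which encodes dystrophin, had no row. Of 17 genes of basement membrane and matrix assembly 8 were named, 4 in both lists and 4 only in the pyruvate-free list, including Nid2, a nidogen (0 and 2), and Sparc (0 and 2). Of 14 genes that modify or crosslink collagen, 8 were named, 4 in both, 1 only in the pyruvate list (P4ha1) and 3 only in the pyruvate-free list, with Lox, lysyl oxidase, at 0 and 2. Of 16 proteases and inhibitors 7 were named, 4 in both and 3 only in the pyruvate-free list, with Timp3 at 3 and 2 peaks and Adamts2 at 4 and 5.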

How the data were processed

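The submitters' processing notes name mm9 and 3 tools: MACS2 2.1.1 and Bowtie2 2.1.0, besides bcl2fastq 2.19. Neither labels nor file headers state the calling threshold, the use of inputs or the gene annotation. The authors deposited 1 peak table per ChIP library, in which peaks are paired with gene bodies and 2000-base flanks. The deposited fold enrichment held 0 in every row with a number (0 rows differed), so it was not used. Peak and region positions are printed as deposited, per the file headers. The 2 input samples were not analysed here.

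Of 21823 cases in which a peak touched a listed region, 257 were not listed as pairs, each with under 50% of the peak inside. Another 207 cases with under 50% inside were listed, so that share alone does not decide the pairing. Genes were counted by identifier, and rows were reduced to distinct peaks. Start sites came from listed bodies and strands, and distance was taken from the near edge of any peak, paired or not. Overlap needed 1 base. Intervals are 95% Clopper-Pearson. The overlap code was tested on simulated data. RefSeq tables of GRCm38.p6 gave names and promoters only.

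The naming rule took, per class, the 4 genes with most peaks, those with the widest peak of each list and those with a promoter-proximal peak. It added, over the set, the 10 widest peaks, the 5 widest without an overlap in each list, and Itga7, Itgb1, Lama2, Dag1, Col6a1, Col6a2 and Col6a3 whatever their values. It named 36 genes; the other genes were named after their values were seen. Some genes that enter the counts are not reported here by name. The members and lists were chosen with earlier results of these data known. Alternatives were stricter overlap, start-site windows of 1 and 10 kb, located starts only, gene bodies only and peaks of at least 250 bases. Others were families by symbol, peaks per 100 kb of gene body, and the pyruvate-free list limited to its widest peaks. Software was matplotlib 3.10.9, scipy 1.17.1, pandas 2.3.3 and numpy 2.4.6 under Python 3.11.15.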

Additional observations from a re-analysis of the deposited data

How the results depend on the processing

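Of 45 alternatives, 27 stayed within 1.5 times a count or within the interval of a share, and 18 moved. Some of the 27 could not show stability. Peaks per 100 kb of gene body differ in unit from peaks per gene, so their closeness carries no meaning. Leaving out Itga9 could not change the pyruvate-free list, where it had 0 peaks. The overlapped share of the pyruvate list was 60.8% when the pyruvate-free list was limited to its widest peaks, as fewer peaks can then be hit. That limit left 8 genes bound in the pyruvate list alone and 12 in the pyruvate-free list alone, against 4 and 19. With peaks of at least 250 bases, genes with a peak in both lists were 15 and those only in the pyruvate-free list 11. The mean number of peaks per gene then fell from 1.42 to 0.827 in the pyruvate list and from 2.21 to 1.06 in the pyruvate-free list, as fewer peaks are left. Promoter-proximal genes in both lists were 16 at 10 kb, 4 with located starts and 3 at 250 bases or more. Those only in the pyruvate list were 2 at 10 kb, 0 with located starts, 2 at 250 bases and 3 with the widest peaks. Those only in the pyruvate-free list were 5 at 1 kb, 4 with located starts, 1 at 250 bases and 3 with the widest peaks. The alternative gene counts were not made over all genes, so whether their shifts are particular to the set cannot be told. Leaving out Itga9, pairing every touching peak, and measuring from peak centres were chosen after seeing the data, and without Itga9 the overlapped share of the pyruvate list was 81.2%. No paired analysis was possible because each condition had 1 library.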
